A study of Homo sapiens with 6 samples.

Results

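The SR proteins and the heterogeneous nuclear ribonucleoproteins (hnRNPs) are the main RNA-binding proteins that set which splice sites a cell uses. Their genes were taken from the deposited tables as every protein-coding row with a symbol made of SRSF and a number, or starting with HNRNP. This gave 39 genes, 12 of the SR family and 27 of the hnRNP family, among 20049 protein-coding rows. RNA sequencing was done on LX-2, a human line of hepatic stellate cells, the matrix-forming cells of the liver. In 3 samples the cells had been transfected with a control siRNA, and in 3 samples with an siRNA against PERK, the endoplasmic reticulum stress sensor encoded by EIF2AK3. All 6 samples were given palmitic acid, a saturated fatty acid, and collected 24 h later, so cells without the fatty acid form no part of these comparisons. LX-2 is 1 cell line, and the labels do not give the number of different siRNAs. Whether the 3 samples of each group were separate cultures is also not stated. The p-values therefore set the difference between groups only against the spread within these groups, which could be technical spread.

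SR proteins carry RNA recognition motifs and a tail rich in arginine and serine. They bind enhancer sequences in exons, recruit the splicing machinery to nearby splice sites, and are moved and switched by kinases that phosphorylate the tail. Proteins of the hnRNP families coat nascent transcripts and often act as silencers of nearby splice sites, and many also act on messenger RNA export, stability and translation. Members of both families can limit their own amounts by splicing exons into their transcripts that lead to nonsense-mediated decay.

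The targeted gene was measured first. EIF2AK3 stood at 6.82, 6.92 and 7.28 TPM (reads per exon length, scaled to a constant total per sample) in the control samples and at 2.29, 2.63 and 2.90 TPM in the PERK siRNA samples. It fell by 1.42 on the log2 scale (SE 0.10, n = 3 per group, edgeR adjusted p = 3.0e-13). The libraries held 17937141 to 19585872 total exon reads, with 94.9 to 95.0% placed uniquely. Of 10 stellate or fibroblast markers, 5 rose, 2 fell and 8 were tested; LUM and DES had at most 3 reads and 1 read in a sample. Their summed level was 5691 to 5835 TPM in control samples and 6395 to 6416 TPM in PERK siRNA samples. Of 5 hepatocyte markers, ALB, APOA1, TTR and FGB had no read in any sample, and the sum over the list was 3.10 to 4.04 and 2.82 to 3.55 TPM. The 4 endothelial markers summed to 5.61 to 5.88 and 1.60 to 1.98 TPM, the 4 immune markers, with CD3E at 0, to 107.5 to 112.7 and 104.7 to 107.7 TPM, and the 4 epithelial markers, with CDH1 at 0, to 23.8 to 27.7 and 14.0 to 15.0 TPM. A single gene made up most of each of these sums in controls. Control and PERK siRNA means were 4.44 and 0.31 TPM for PECAM1 (endothelial), 110.2 and 105.8 for CD68 (immune), and 24.6 and 13.9 for KRT7 (epithelial). PTPRC and LYZ had at most 11 and 8 reads in a sample. The part of these shifts in the results on splicing regulators was not tested.

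Most splicing regulators changed by small, tightly measured amounts, and more of them fell than rose. Of the 34 members with enough reads to test, 8 rose, 20 fell and 6 did not pass the test, at an adjusted p threshold of 0.05 over 12973 genes. The 28 that passed were 82.4% of those tested, and 69.5% of all genes tested passed the same threshold. Here and below, all tested genes were not matched to the members for abundance, which bears on both passing and size. The rises were 23.5% of tested members against 34.4% of all tested genes, and the falls 58.8% against 35.0%. Log2 fold changes ran from -0.49 to 0.47, and 0 of 34 members reached a size of 0.5, which 25.7% of all tested genes did while passing the test. The median absolute log2 fold change was 0.17 over members and 0.28 over all tested genes, and the median signed values were -0.08 and 0.00. Small sizes were not particular to members. The median absolute value was 0.10 over the core spliceosome list described below and 0.11 over other SR-related proteins. It was 0.17 over enzymes and carriers acting on SR proteins, 0.22 over other splicing regulators and 0.24 over nonsense-mediated decay factors. The groups' CPM (reads scaled to library size) did not overlap for 27 of 34 members and for 71.8% of all tested genes. Against a 1.2-fold change (edgeR glmTreat), 7 of 34 members passed, or 20.6%, with 36.1% of all tested genes. These 7 were SRSF5 and HNRNPUL2, which rose, and HNRNPH3, HNRNPDL, HNRNPD, HNRNPA2B1 and SRSF8, which fell. HNRNPUL2 passed on total reads, of which 38.3% were unique. On unique reads it rose by 0.23 on the log2 scale, which is under 1.2-fold, and the 1.2-fold test was not run on those. In bulk samples, fewer cells of a type and less RNA per cell cannot be told apart.

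**Figure D1:**
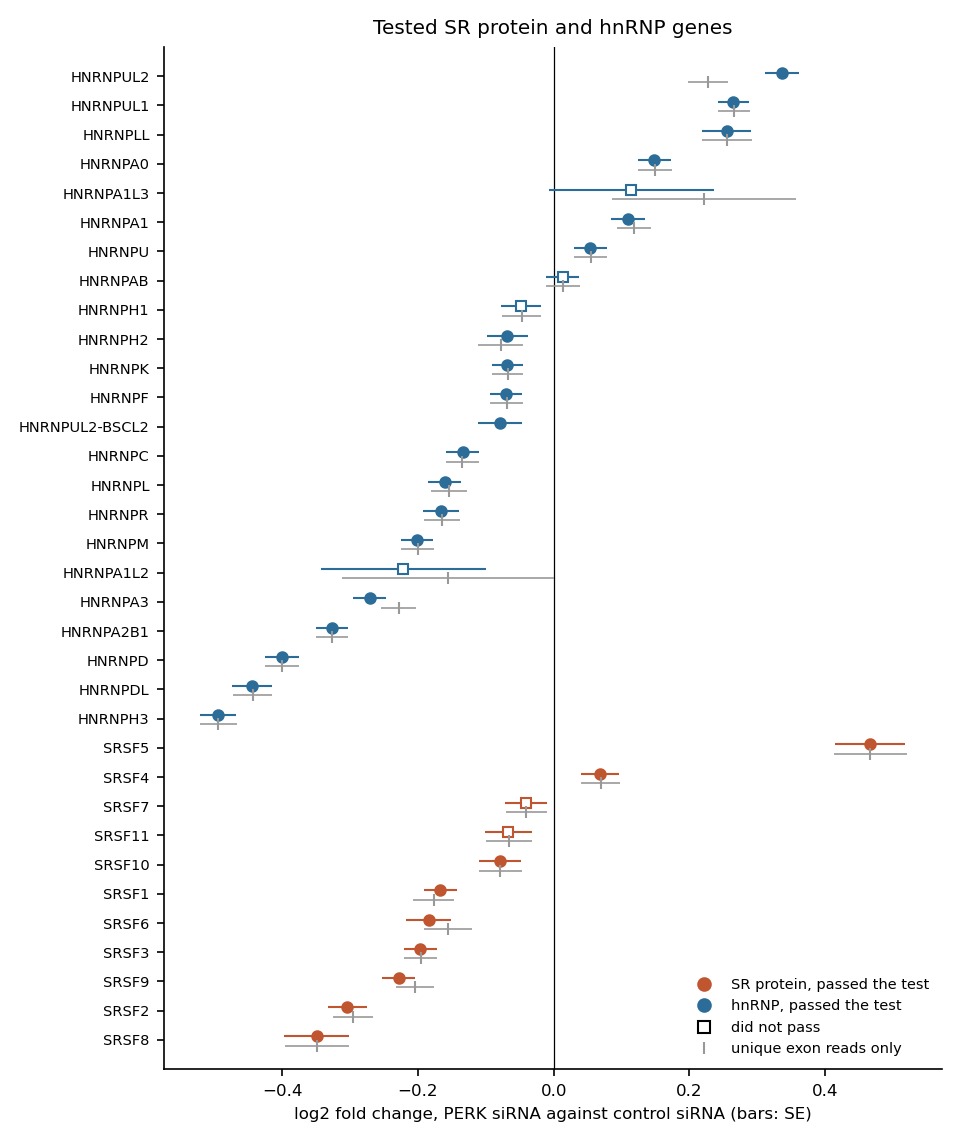
Log2 fold change of each of the 34 tested members, PERK siRNA against control siRNA, with bars of 1 standard error; filled circles passed the test, open squares did not, and grey ticks are the same from unique reads. Values from total reads lie between -0.49 and 0.47, with SRSF5 at the upper end and HNRNPH3 at the lower end.

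The 5 members without a test were barely transcribed. SRSF12, an SR protein known from testis and brain, had 5 to 13 reads per sample. HNRNPCL1, HNRNPCL2 and HNRNPCL3, copies of the HNRNPC gene, had 0 to 2 reads, and HNRNPCL4 had no read in any sample. A count of 3 reads, taken as the floor, corresponded to 0.153 to 0.167 CPM, a limit that covers counting error only. The tested members had from 94 reads in a sample, for HNRNPA1L2, to 26136, for HNRNPA1. For 12 of them under 90% of reads were placed uniquely, and these shares stand beside their values.

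Summed over the family, SR transcripts stood lower in PERK siRNA samples. Of 11 tested SR genes, 2 rose and 7 fell, and the median log2 fold change was -0.17. Their summed level was 2128, 2151 and 2121 TPM in the control samples and 1884, 1870 and 1897 TPM in the PERK siRNA samples. The sums did not overlap, and the PERK siRNA mean was 88.3% of the control mean (exact permutation test, two-sided, p = 0.10, the smallest that 3 against 3 samples can give). SR genes took 0.208% ± 0.000538 (SD, n = 3) of all exon reads in control samples and 0.185% ± 0.00160 in PERK siRNA samples.

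The SR proteins with 2 RNA recognition motifs include both SR genes that rose. SRSF5, a splicing enhancer whose transcript is known to respond to insulin and other stimuli, stood at 21.3, 21.5 and 21.6 TPM in the control samples and at 30.2, 28.4 and 30.1 TPM in the PERK siRNA samples. All PERK siRNA samples lay above all controls, and the rise was 0.47 on the log2 scale (SE 0.05, edgeR adjusted p = 4.8e-09), the largest rise among members. Its level was nonetheless low for the family, with 471 to 690 reads per sample. SRSF4, a close relative with a long arginine and serine tail, rose by 0.07 (SE 0.03), from 153.9 ± 2.95 to 160.7 ± 0.26 TPM (SD, n = 3); its edgeR adjusted p was 0.032 and lay between 0.0093 and 0.12 over the alternatives other than the 1.2-fold test. SRSF6, a close relative of both and a regulator of TAU splicing, went the other way: it fell by 0.18 (SE 0.03), from 81.0 ± 3.61 to 71.0 ± 0.89 TPM, and by 0.16 on unique reads, which were 74.3% of its total.

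Promoter windows from RefSeq (GRCh38.p14), reaching 250 bases before and 50 after a start site, were matched by symbol for 35 of 39 members; where a gene had several, the window nearest its GENCODE start was used. They were searched on both strands for 8 short motifs, chosen with the values known: the CCAAT box (CCAAT), the TATA box (TATAAA), the GC box (GGGCGG), an ETS factor motif (CGGAAG), the E-box (CACGTG), the CRE (TGACGTCA), the NRF1 core (GCATGCGC) and a composite of ATF4 and C/EBP (TGATGNAA). The ETS motif lay in 40.0% of the members' windows and 19.46% of 35116 windows of all genes. The latter can be several per gene and were not filtered for expression, so these shares, here and below, are not like for like. The ETS motif was in 5 of 7 windows of members that rose and in 6 of 19 of members that fell. The windows of HNRNPUL2, which rose, and HNRNPUL2-BSCL2, which fell, overlap, and both hold the motif. No window was matched for HNRNPA1, which rose, for SRSF2, which fell, or for HNRNPA1L3 and HNRNPCL3. HNRNPA2B1, which fell, has 3 matches before its start site, and no match was tied to a change in level. SRSF5, the member that rose most, has 2 such matches within the 250 bases before its RefSeq start site, 102 and 50 bases from it. That start site lies 40242 bases from the start of the gene in GENCODE, which includes transcripts that begin farther upstream. They are printed 5′ to 3′ with 12 bases on either side, with the match in capitals, which on the farther site is the reverse complement.
SRSF5, farther site, chr14:69767022-69767051, plus strand: gccctcccaaaaCTTCCGtcttccctaggt
SRSF5, nearer site, chr14:69767074-69767103, plus strand: caggggcgtcccCGGAAGtgacgtaggacg

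The other SR proteins with 2 recognition motifs fell. SRSF9, the most abundant SR transcript here and a splicing regulator that can antagonise other SR proteins, stood at 684.3, 689.2 and 678.7 TPM in controls and at 582.9, 582.3 and 579.4 TPM with PERK siRNA. The groups were far apart and the fall was 0.23 on the log2 scale (SE 0.02, edgeR adjusted p = 1.8e-09). Unique reads made up 60.2% of the SRSF9 total, and 46.2% of its GENCODE exon bases overlap exons of other protein-coding genes, namely GATC, which fell by 0.59 on the log2 scale; on unique reads SRSF9 fell by 0.20 (SE 0.03). SRSF1, the founding SR protein and a regulator of both splicing and translation, stood at 231.4, 232.6 and 233.7 TPM in controls and at 202.3, 207.6 and 208.6 TPM with PERK siRNA. It fell by 0.17 on the log2 scale (SE 0.02, edgeR adjusted p = 5.0e-07), and by 0.18 (SE 0.03) on the 40.4% of its reads that were placed uniquely. The exons of SRSF1 overlap those of AC015813.2 over 56.6% of their bases, and that gene missed the threshold, at a log2 fold change of 0.95 (SE 0.37, edgeR adjusted p = 0.076).

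Among the 6 tested SR genes with 1 recognition motif, 4 fell, 0 rose and 2 did not pass the test. SRSF2, which binds exonic enhancers and is recurrently mutated in myeloid disease, stood at 356.0, 372.7 and 347.2 TPM in controls and at 287.6, 280.5 and 299.4 TPM with PERK siRNA. The lowest control lay well above the highest PERK siRNA sample, and the fall was 0.30 on the log2 scale (SE 0.03, edgeR adjusted p = 1.8e-10). The exons of SRSF2 overlap those of MFSD11, which itself fell by 0.31, over 36.7% of their bases; on unique reads, 74.5% of the total, SRSF2 fell by 0.30. SRSF8, a close copy of SRSF2, stood at 37.6, 35.1 and 37.5 TPM in controls and at 27.6, 28.9 and 29.7 TPM with PERK siRNA. It fell by 0.35 on the log2 scale (SE 0.05, edgeR adjusted p = 2.0e-07), close to SRSF2 in size. The ratio of SRSF2 to SRSF8 in TPM was 9.78 ± 0.73 (SD, n = 3) in controls and 10.1 ± 0.36 with PERK siRNA, and these values overlapped (exact permutation test, two-sided, p = 0.60).

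SRSF3, the smallest SR protein and an adaptor for messenger RNA export, stood at 277.9, 273.0 and 274.2 TPM in controls and at 238.9, 239.3 and 238.7 TPM with PERK siRNA. The PERK siRNA samples lay within 1 TPM of each other and below every control, and the fall was 0.20 on the log2 scale (SE 0.02, edgeR adjusted p = 2.4e-08). SRSF7, the other export adaptor of this kind, missed the threshold with a log2 fold change of -0.04 (SE 0.03, edgeR adjusted p = 0.25), at 152.1 ± 3.65 and 147.3 ± 4.96 TPM. SRSF10, a splicing repressor when its tail is dephosphorylated, fell by 0.08 (SE 0.03, edgeR adjusted p = 0.025; 0.011 to 0.096 over the alternatives other than the 1.2-fold test). SRSF11, which contacts the U2AF splice site factor, had a log2 fold change of -0.07 (SE 0.03) and did not pass the test (edgeR adjusted p = 0.091, and 0.017 without control replicate 2).

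**Figure D2:**
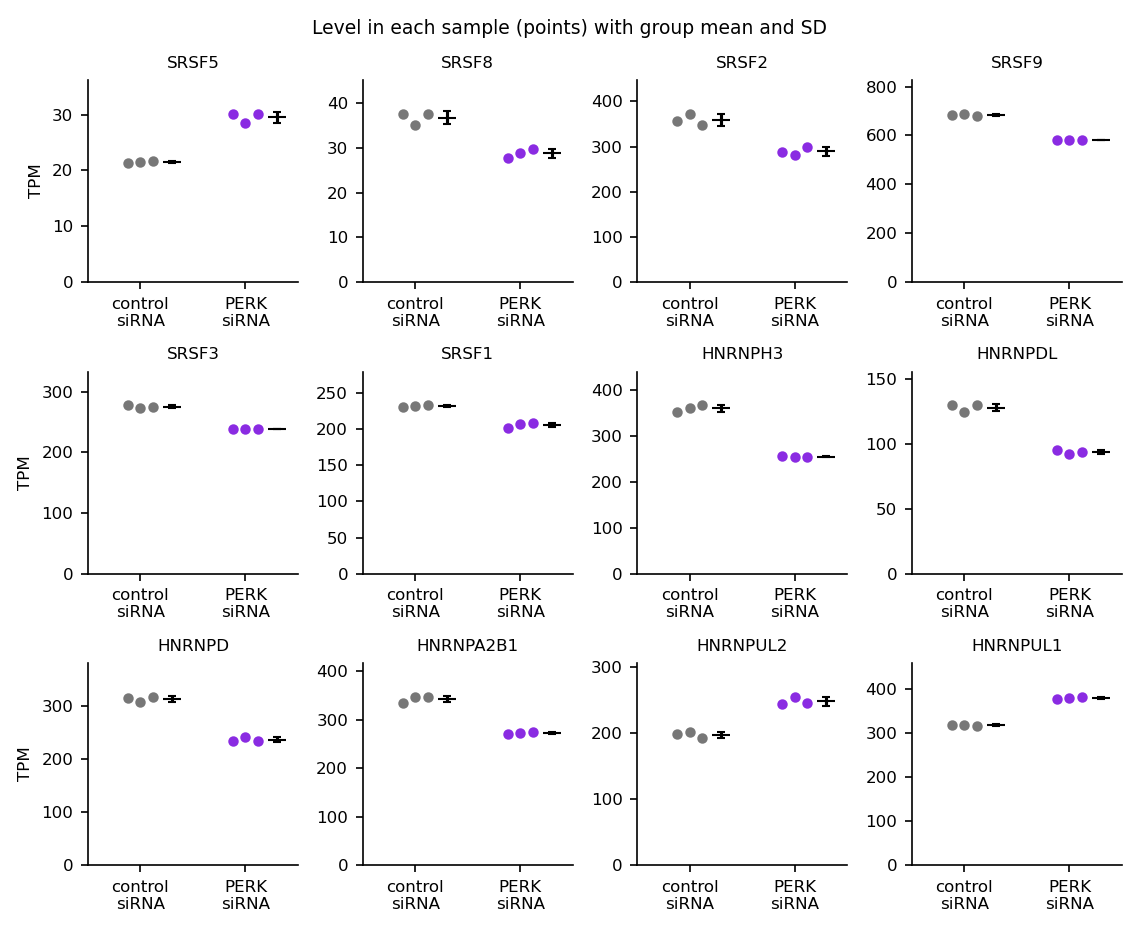
TPM in each of the 6 samples for the 12 members with the smallest adjusted p (6 per family); points are samples, and the black tick with its bar is the mean and SD of 3. SRSF5, HNRNPUL2 and HNRNPUL1 sit higher with PERK siRNA, the other 9 sit lower, and no panel shows overlap.

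The hnRNP genes were more mixed. Of 23 tested, 6 rose, 13 fell and 4 did not pass the test, with a median log2 fold change of -0.07. The falls, here and over all members, include the readthrough gene HNRNPUL2-BSCL2, almost none of whose reads were unique. With it included, hnRNP genes summed to 7012, 7030 and 7060 TPM in the controls and to 6630, 6649 and 6607 TPM with PERK siRNA. The sums did not overlap, and the PERK siRNA mean was 94.2% of the control mean (exact permutation test, two-sided, p = 0.10, the smallest possible). As a share of all exon reads, hnRNP genes took 0.926% ± 0.00957 (SD, n = 3) in controls and 0.879% ± 0.00287 with PERK siRNA.

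The A, B and D type hnRNPs, built on paired recognition motifs with a glycine-rich tail, split between rises and falls. HNRNPA2B1, which sorts RNAs for transport and export and binds methylated transcripts, stood at 335.4, 347.5 and 346.3 TPM in controls and at 269.6, 273.2 and 274.3 TPM with PERK siRNA. It fell by 0.33 on the log2 scale (SE 0.02, edgeR adjusted p = 2.7e-13) with no overlap. HNRNPA1, its closest abundant relative and the classical splicing silencer, stood at 687.9, 677.4 and 720.6 TPM in controls and at 746.4, 753.6 and 741.8 TPM with PERK siRNA. Its rise was 0.11 on the log2 scale (SE 0.03, edgeR adjusted p = 3.4e-04). Only 30.1% of HNRNPA1 reads were placed uniquely, of a gene known for its many processed copies, and on those the rise was 0.12 (SE 0.03). HNRNPA3, another relative, fell by 0.27 (SE 0.02), from 246.9 ± 1.59 to 203.7 ± 5.72 TPM (SD, n = 3), and by 0.23 on unique reads, which were 60.0% of its total. HNRNPA0, a target of the p38 pathway kinase that stabilises inflammatory messenger RNAs, rose by 0.15 (SE 0.02), from 122.6 ± 1.87 to 135.3 ± 1.06 TPM. The retrocopies HNRNPA1L2 and HNRNPA1L3 had at most 129 and 258 reads in a sample, unique shares of 54.7 and 40.2%, and log2 fold changes of -0.22 (SE 0.12) and 0.11 (SE 0.12) that did not pass the test; without control replicate 3 their edgeR adjusted p were 0.039 and 0.014.

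Levels of these relatives were also set against each other inside each sample. The ratio of HNRNPA1 to HNRNPA2B1 in TPM was 2.05, 1.95 and 2.08 in controls and 2.77, 2.76 and 2.70 with PERK siRNA, with no overlap. The ratio of HNRNPA0 to HNRNPA2B1 was 0.358 ± 0.012 (SD, n = 3) and 0.497 ± 0.0048. In all, 16 such ratios between relatives were compared, in pairs chosen with the results known. A ratio whose groups did not overlap had an exact two-sided permutation p of 0.10, the smallest possible, and 0.12 when adjusted over the 16. SRSF5 against SRSF6 moved most, from 0.265 ± 0.012 to 0.416 ± 0.011. The ratio of HNRNPD to HNRNPDL, at 2.45 ± 0.017 and 2.52 ± 0.080, gave an exact p of 0.20, and that of HNRNPH2 to HNRNPH1, at 0.946 ± 0.019 and 0.935 ± 0.051, an exact p of 0.80.

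**Figure D3:**
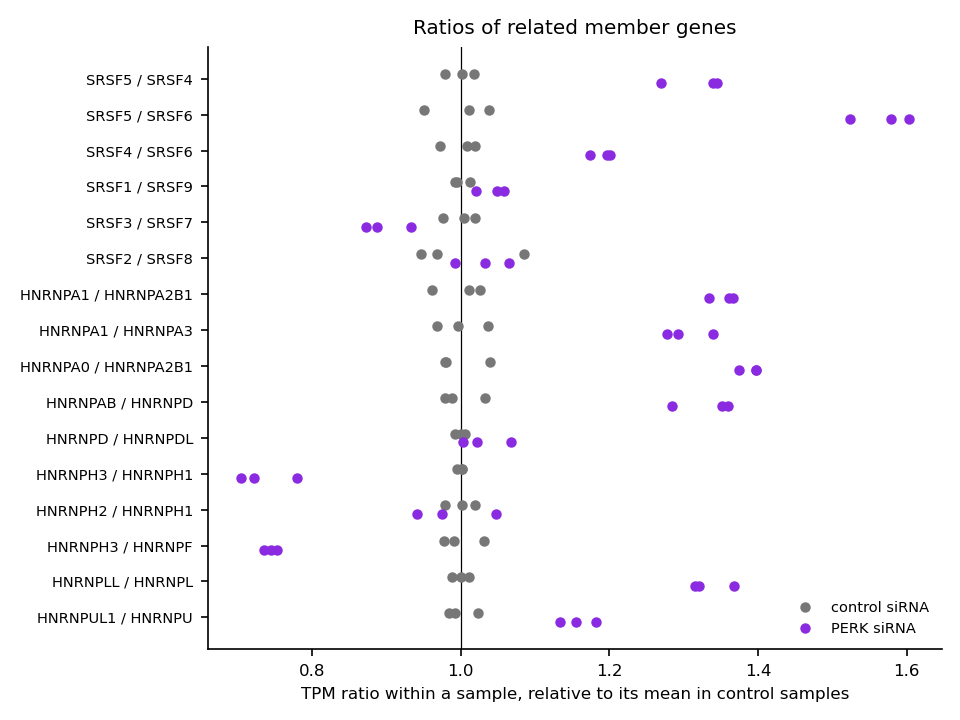
TPM ratio of related members within each sample, shown as the ratio relative to the control mean, with 1 point per sample. SRSF5 over SRSF6 and HNRNPA0 over HNRNPA2B1 lie above the controls, HNRNPH3 over HNRNPH1 lies below them, and SRSF2 over SRSF8 overlaps.

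HNRNPD and HNRNPDL, AU-rich element binding proteins that are known for steering messenger RNA decay, were among the members that fell most. HNRNPD stood at 314.8, 306.4 and 316.8 TPM in controls and at 233.3, 240.8 and 233.5 TPM with PERK siRNA, a fall of 0.40 on the log2 scale (SE 0.03, edgeR adjusted p = 1.8e-14). HNRNPDL stood at 129.6, 124.5 and 129.4 TPM in controls and at 95.1, 92.3 and 93.4 TPM with PERK siRNA, a fall of 0.44 (SE 0.03, edgeR adjusted p = 3.7e-14). Both sets of PERK siRNA samples lay below all controls. The genes are neighbours on chromosome 4 on the minus strand (GRCh38), 48060 bases apart with 0 protein-coding genes between them. HNRNPAB, a relative with the highest level of all members, missed the threshold, at a log2 fold change of 0.01 (SE 0.02, edgeR adjusted p = 0.64). Its samples ran at 790.7, 804.6 and 788.8 TPM in controls and at 806.3, 786.6 and 802.5 TPM with PERK siRNA, and overlapped throughout. The ratio of HNRNPAB to HNRNPD accordingly went from 2.54 ± 0.073 to 3.39 ± 0.10.

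The F and H type hnRNPs bind runs of G through related recognition motifs. HNRNPH3, the family's member without the first of those motifs, fell more than any other SR or hnRNP gene tested. It stood at 352.4, 359.8 and 366.4 TPM in controls and at 255.5, 253.9 and 252.7 TPM with PERK siRNA, a fall of 0.49 on the log2 scale (SE 0.03, edgeR adjusted p = 5.3e-16) that left the groups far apart. Its relatives moved far less. HNRNPF fell by 0.07 (SE 0.02), from 502.6 ± 5.71 to 476.8 ± 5.05 TPM (edgeR adjusted p = 0.010, and 0.059 without PERK siRNA replicate 2), and HNRNPH2 fell by 0.07 (SE 0.03), from 179.4 ± 4.06 to 170.3 ± 0.94 TPM, and by 0.08 on unique reads (84.2% of its total). The edgeR adjusted p of HNRNPH2 was 0.045, and it ran from 0.021 to 0.15 over the alternatives other than the 1.2-fold test, with 0.052 when the replicate number was a block. HNRNPH1 missed the threshold with a log2 fold change of -0.05 (SE 0.03), at 189.6 ± 3.76 and 182.5 ± 8.86 TPM; without PERK siRNA replicate 2 its edgeR adjusted p went from 0.15 to 0.049. The ratio of HNRNPH3 to HNRNPH1 was 1.90 ± 0.0076 in controls and 1.39 ± 0.075 with PERK siRNA.

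The E-box lay in the promoter windows of 7 of 35 members and in 7.26% of all windows. It was in 6 of 19 windows of members that fell, HNRNPA3, HNRNPD, HNRNPDL, HNRNPH2, HNRNPH3 and HNRNPM, and in 1 of 7 windows of members that rose, that of HNRNPUL1, where it follows the start site. In the 6 it lies within the 250 bases before the start site, and HNRNPH2 holds it at 2 places. These stretches are shown because they carry letters shared by hnRNP genes that fell, among them HNRNPH3, HNRNPDL and HNRNPD, which fell most. HNRNPH2 fell by only 0.07, and HNRNPA2B1 and SRSF8, which fell by 0.33 and 0.35, have no match. The match is in capitals with up to 12 bases on either side, 5′ to 3′ on the gene's strand.
HNRNPA3, chr2:177212711-177212740, plus strand: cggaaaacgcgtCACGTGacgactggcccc
HNRNPD, chr4:82374001-82374030, minus strand: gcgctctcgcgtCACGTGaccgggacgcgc
HNRNPDL, chr4:82430572-82430601, minus strand: ggagcccgagacCACGTGggcaggaaaagg
HNRNPH2, farther site, chrX:101408168-101408197, plus strand: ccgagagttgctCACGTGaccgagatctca
HNRNPH2, nearer site, chrX:101408201-101408221, plus strand: gacgtaggcgctCACGTGatt
HNRNPH3, chr10:68331631-68331660, plus strand: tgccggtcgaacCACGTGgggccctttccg
HNRNPM, chr19:8444921-8444950, plus strand: gttgcgtcgggtCACGTGggcgcgcaggcg
The distance from the match to the RefSeq start site is 65 bases for HNRNPA3, 21 for HNRNPD, 121 for HNRNPDL, 36 and 3 for HNRNPH2, 44 for HNRNPH3 and 36 for HNRNPM. The GENCODE gene start lies 231 bases from that site for HNRNPA3, 512 for HNRNPD and 54 for HNRNPDL. It lies 73 bases away for HNRNPH2, 519 for HNRNPH3 and 208 for HNRNPM. For HNRNPA2B1 and SRSF8, without a match, it lies 783 and 278 bases from the RefSeq start site. A match is a stretch of letters and was not tied to any factor or to the change in level. Of the other motifs, the CCAAT box was in 54.3% of members' windows and 34.61% of all windows, the GC box in 60.0 and 44.95%, the TATA box in 11.4 and 11.53% and the NRF1 core in 2.9 and 3.05%. The CRE was in 0 of 35 windows of members against 1.85% of all, and the composite of ATF4 and C/EBP in 0 against 3.62%.

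HNRNPC, which binds U tracts and guards against splicing of repeat sequences, fell by 0.13 (SE 0.02), from 325.0 ± 7.08 to 295.0 ± 1.70 TPM. HNRNPK, the KH domain protein that binds C-rich RNA and DNA, stood at 704.7, 703.4 and 700.3 TPM in controls and at 671.1, 659.9 and 670.8 TPM with PERK siRNA. The groups did not overlap, yet the fall was 0.07 on the log2 scale (SE 0.02, edgeR adjusted p = 0.0092, and 0.053 without PERK siRNA replicate 2). HNRNPM, a regulator of splicing in epithelial and mesenchymal cells, fell by 0.20 (SE 0.02), from 557.0 ± 2.18 to 482.5 ± 7.13 TPM. HNRNPR, found in nuclear and axonal RNA particles, fell by 0.17 (SE 0.03), from 129.4 ± 4.35 to 114.8 ± 2.17 TPM. HNRNPL, which binds CA repeats, fell by 0.16 (SE 0.02), from 554.3 ± 4.91 to 493.8 ± 9.86 TPM, and by 0.15 on unique reads (69.2% of its total), whereas its paralog HNRNPLL, best known from lymphocyte splicing of PTPRC, rose by 0.25 (SE 0.04), from 40.45 ± 0.57 to 48.1 ± 0.42 TPM. The ratio of HNRNPLL to HNRNPL went from 0.0730 ± 0.00086 to 0.0974 ± 0.0021.

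The U type, SAP domain proteins that bind chromatin and nascent RNA, held 3 of the 6 hnRNP genes that rose. HNRNPUL1 stood at 319.1, 319.6 and 315.6 TPM in controls and at 377.7, 380.4 and 383.2 TPM with PERK siRNA, a rise of 0.26 on the log2 scale (SE 0.02, edgeR adjusted p = 2.2e-11). HNRNPUL2 stood at 198.6, 201.2 and 192.7 TPM in controls and at 243.6, 255.5 and 245.7 TPM with PERK siRNA, a rise of 0.34 (SE 0.02, edgeR adjusted p = 6.9e-13). For both, every PERK siRNA sample was above every control. Unique reads made up 38.3% of the HNRNPUL2 total, and 44.1% of its exon bases also belong to the readthrough gene HNRNPUL2-BSCL2. On unique reads it rose by 0.23 (SE 0.03), which is under 1.2-fold. The readthrough gene fell by 0.08 (SE 0.03) on total reads (edgeR adjusted p = 0.037, and 0.19 without PERK siRNA replicate 3), but only 0.0172% of its reads were unique, so its value cannot be separated from those of HNRNPUL2 and BSCL2, which itself fell by 0.68. HNRNPU, the scaffold attachment factor, rose by 0.05 (SE 0.02), from 116.9 ± 2.35 to 120.8 ± 2.23 TPM; its edgeR adjusted p of 0.044 ran from 0.0090 to 0.23 over the alternatives other than the 1.2-fold test. Its exons overlap those of COX20, which fell by 0.57, over 15.6% of their bases. The labels do not say whether reads were counted by strand, so overlapping genes on opposite strands may share reads.

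**Figure D4:**
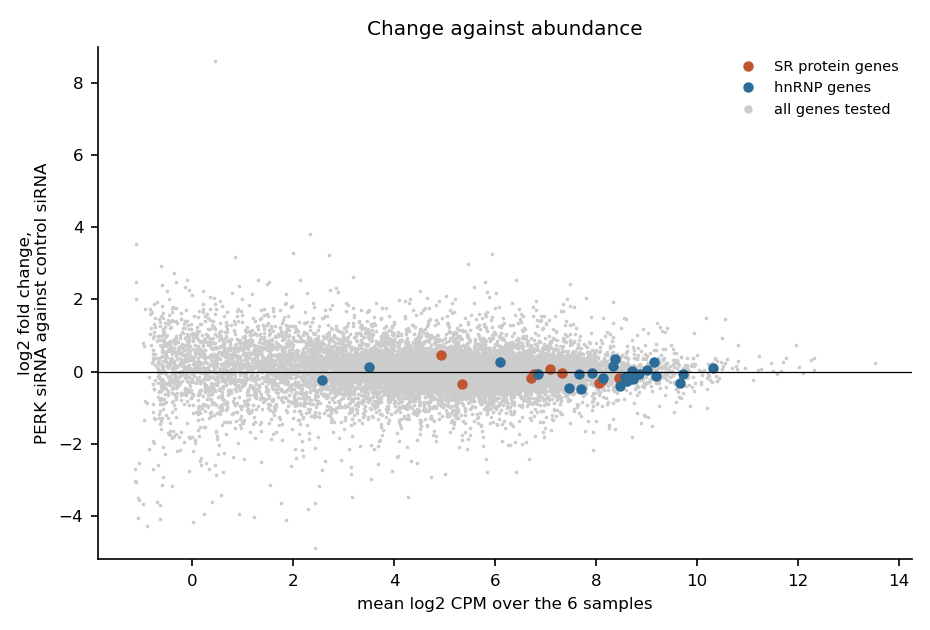
Mean log2 CPM over the 6 samples against log2 fold change; grey points are all 12973 tested genes, orange the 11 tested SR genes and blue the 23 tested hnRNP genes. The coloured points lie within -0.49 to 0.47, inside the vertical spread of the grey ones.

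Several members share a promoter region with a gene read in the opposite direction. Start sites within 1000 bases of that of another protein-coding gene were found for 9 members, leaving out the readthrough gene. Both genes fell in 2 pairs, HNRNPDL with ENOPH1 (log2 fold change of ENOPH1 -0.25) and HNRNPH2 with GLA (-0.26 for GLA). They moved in opposite directions in 3 pairs: HNRNPA2B1 fell while CBX3 rose by 0.13, HNRNPK fell while RMI1 rose by 0.18, and HNRNPUL2 rose while TTC9C fell by 0.14. In the other 4 pairs, HNRNPA1 with CBX5, SRSF9 with DYNLL1, SRSF7 with GEMIN6 and SRSF11 with LRRC40, at least 1 gene did not pass the test.

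Enzymes and carriers that act on SR proteins, hnRNPs or RNA polymerase II moved in both directions. Of 22 tested, 7 rose and 9 fell, with a median log2 fold change of -0.03. SRPK2, a kinase that phosphorylates the arginine and serine tail in the cytoplasm, rose by 0.66 (SE 0.04), from 33.4 ± 0.39 to 52.7 ± 0.54 TPM. CLK2, a nuclear kinase of the same substrates, rose by 0.41 (SE 0.08), and TNPO1, an import receptor that carries HNRNPA1, rose by 0.24 (SE 0.02). TNPO3, the other import receptor in the list, fell by 0.12 (SE 0.03). CDK13 and CDK12, kinases of RNA polymerase II, fell by 0.82 (SE 0.04) and 0.51 (SE 0.03). PRMT1, which methylates arginines of hnRNPs, fell by 0.30 (SE 0.03), from 180.6 ± 1.18 to 145.8 ± 0.44 TPM.

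Other proteins with arginine and serine repeats showed 7 rises and 11 falls among 30 tested, with a median of -0.01. NKTR, a cyclophilin with such repeats, rose by 0.83 (SE 0.04), THRAP3 by 0.41 (SE 0.03) and SREK1 by 0.31 (SE 0.04). TRA2B, an enhancer-binding partner of SR proteins, fell by 0.31 (SE 0.03), RNPS1, a part of the exon junction complex periphery, by 0.30 (SE 0.03) and LUC7L2 by 0.39 (SE 0.04), with 45.3% of LUC7L2 reads unique.

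Splicing regulators outside both families, 40 tested, had 13 rises and 15 falls and a median of 0.01. This list held changes larger than any of the members': MBNL1, a muscleblind splicing factor, rose by 1.86 (SE 0.03), from 33.4 ± 0.83 to 120.9 ± 2.73 TPM. PTBP3, a polypyrimidine tract binding protein, rose by 1.41 (SE 0.03), from 27.5 ± 0.62 to 72.8 ± 2.36 TPM, and QKI, a STAR family regulator of splicing in mesenchymal cells, rose by 0.75 (SE 0.03). FUBP1 fell by 0.83 (SE 0.04), ILF2 by 0.54 (SE 0.03) and RBMX by 0.37 (SE 0.03). MATR3 was in the list but had no row matched by symbol and was not analysed here.

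The core spliceosome list, 54 tested, had 13 rises and 19 falls and a median of -0.03. SNRPB2, a U2 particle protein, rose by 1.01 (SE 0.04), from 58.7 ± 3.02 to 117.3 ± 1.63 TPM, while its U2 partner SNRPA1 fell by 0.59 (SE 0.05), from 115.9 ± 3.69 to 76.6 ± 1.72 TPM. TXNL4A and PRPF4 rose by 0.22 (SE 0.03) and 0.19 (SE 0.03), BCAS2 fell by 0.60 (SE 0.04) and EFTUD2, the U5 GTPase, by 0.35 (SE 0.03). Among 18 nonsense-mediated decay factors, 8 rose and 4 fell, with a median of 0.04. UPF3B rose by 0.72 (SE 0.06), CASC3 by 0.47 (SE 0.03) and UPF1, the central helicase of the pathway, by 0.35 (SE 0.03). SMG6, the endonuclease, fell by 0.43 (SE 0.03) with 61.2% of reads unique, MAGOHB by 0.38 (SE 0.07) and SMG9 by 0.25 (SE 0.04). Genes that passed were, in the order of the 5 lists, 16 of 22, 18 of 30, 28 of 40, 32 of 54 and 12 of 18, beside 69.5% of all tested genes. All of the genes named from these lists as changed had an edgeR adjusted p under 0.05, and none of the lists was tested as a set.

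**Figure D5:**
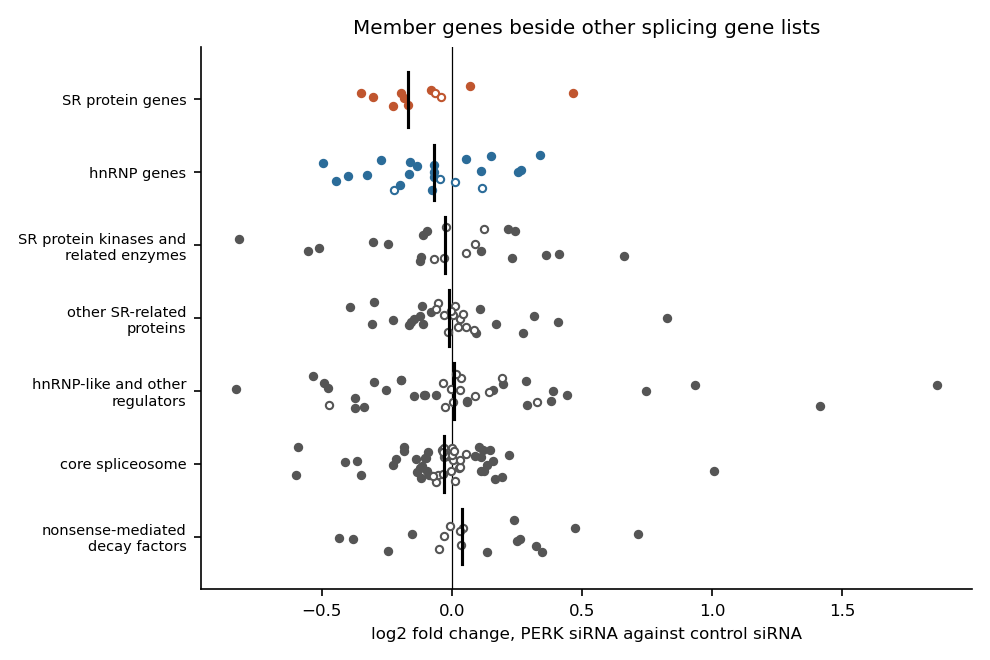
Log2 fold change of each tested gene, grouped as SR genes, hnRNP genes and the 5 lists of related genes; each point is 1 gene filled where it passed the test, and the vertical bar is the median. The SR median lies at -0.17 and the hnRNP median at -0.07, the list medians lie between -0.03 and 0.04, and MBNL1 at 1.86 is the highest point.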

How the data were processed

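RNA of LX-2 cells was sequenced from directional libraries, per the labels' protocols, against hg38, per the submitters' processing notes. Aligner, counter and use of strand: not given in the sources used here. Per the file headers, the authors deposited counts of total and of unique exon reads, and TPM. TPM matched total exon reads per exon length.

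Total exon reads were tested with edgeR 4.0.16 (R 4.3.3) by its quasi-likelihood test, with TMM factors, the default expression filter (12973 genes), robust dispersion and Benjamini-Hochberg adjustment at 0.05. Positive fold changes mean higher with PERK siRNA. Summed TPM and ratios had exact permutation tests. The test was run on simulated counts in which far fewer genes changed than passed here. Its recovery limits there were set for changes larger than any member's. That run therefore does not cover scaling under so many changes, or changes as small as the members'. Places came from GENCODE 29, promoter windows from RefSeq GRCh38.p14.

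Alternatives, 17 in all, were unique reads, other scaling or filters, DESeq2 1.42.0, limma-voom (3.58.1), non-robust dispersion, a replicate block, a 1.2-fold test and leaving out each sample. Members with the 6 smallest adjusted p and the 3 highest TPM per family got values in every sample. No others did, since 0 members reached a log2 size of 0.5. Lists named up to 3 genes per direction, and TNPO3 was added. Members and lists were chosen with earlier results of these data known. Replicate numbers were not taken as pairs.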

Additional observations from a re-analysis of the deposited data

How the results depend on the processing

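Of 577 log2 fold changes of members under the 17 alternatives, 515 kept their direction and side of the threshold, 56 no longer passed, 6 newly passed and 0 changed sign. Leaving the 1.2-fold test aside, 21 of 28 calls held under every alternative; the 7 that did not were SRSF4, SRSF10, HNRNPF, HNRNPH2, HNRNPK, HNRNPU and HNRNPUL2-BSCL2, with log2 sizes of at most 0.08. Against a 1.2-fold change, 2345 genes in all were higher and 2344 lower, with 1 SR gene higher and 1 lower and 1 hnRNP gene higher and 4 lower; that test asks for a larger change. The count of SR genes that rose was 1 with no scaling factors, with no low-count filter and with DESeq2, where SRSF4 no longer passed, and 1 to 2 when each sample was left out in turn; it was 1 without control replicate 1 or 3 and without PERK siRNA replicate 1 or 3. HNRNPH2 did not pass without control replicate 2 or 3 or without any 1 of the PERK siRNA replicates, HNRNPU without control replicate 1 or 3 or PERK siRNA replicate 1 or 2, SRSF10 without replicate 2 or 3 of either group, and HNRNPUL2-BSCL2 without control replicate 1 or 3 or PERK siRNA replicate 2 or 3. HNRNPA1L2, HNRNPA1L3, HNRNPH1 and SRSF11 are those that newly passed. The cause was not tested. Summed TPM with PERK siRNA was 89.7% of control on unique reads and 89.9% without the most abundant member for SR genes, and 92.8% and 93.4% for hnRNP genes. With the replicate number as a block, 2 SR genes rose and 7 fell, and 6 hnRNP genes rose and 12 fell; same-numbered samples did not deviate together (correlations 0.0077, -0.0224 and -0.0179). Depth limits HNRNPA1L2, HNRNPA1L3, SRSF12 and the HNRNPCL genes.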
